A study of Mus musculus with 12 samples.

Results

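Gene counts in whole gonadal white adipose tissue (gWAT) were read out for 8 acute-phase genes that fat tissue is known to express, namely Hp, Saa3, Lcn2, Orm1, Orm2, Steap4, Hpx and Ptx3. The genes were chosen by name, and they and all gene lists below were chosen with earlier results of these data known. All 8 were found among the 19792 genes of the count table and passed the filter on low counts. The RNA-seq data held 12 libraries from male mice, 3 in each of 4 groups. All mice carried the floxed allele of Gja1, the gene of connexin 43 (Cx43), and their strain was labelled C57BL/6. WT-NCD and WT-HFD were floxed mice without CreER on a normal chow diet (NCD) or a high-fat diet (HFD), and KO-NCD and KO-HFD were Gja1-floxed Csf1r-CreER mice (Cx43-MKO) on the same diets. Feeding began at 6 weeks of age and lasted 8 weeks. The Csf1r promoter belongs to the macrophage lineage, and CreER driven by it removes the floxed allele only after tamoxifen, so other cells of the tissue keep Gja1. Tamoxifen stands in the labels of the KO samples alone, whereas the study's methods give it to both genotypes. FVB stands in the strain name of the CreER mice, so strain background and genotype cannot be told apart. The labels do not say that each library is a separate animal, and p-values therefore measure the spread between libraries, which may be partly technical. WT-HFD libraries are named 1, 2 and 4, as in the table.

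Acute-phase proteins are secreted proteins whose synthesis changes with inflammation. The liver is their main source in plasma. In fat, adipocytes, macrophages and stromal cells also make some of them. Interleukin-6 and its relatives induce them through STAT3, interleukin-1 and tumour necrosis factor through NF-kB, and both routes work together with the C/EBP transcription factors. Hp (haptoglobin) captures free haemoglobin and Hpx (hemopexin) captures free haem. Saa3 is a serum amyloid A of mice that is made mainly outside the liver. Lcn2 (lipocalin 2) binds bacterial siderophores and is stored in neutrophil granules as well as made by adipocytes. Ptx3 is the long pentraxin, a soluble pattern recognition molecule made at sites of inflammation. Orm1 and Orm2 encode orosomucoids, which carry lipids and drugs in plasma. Steap4 is a membrane metalloreductase of adipocytes.

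RefSeq promoter windows of GRCm38.p6, from 250 bases before to 50 bases after the start, were matched for 6 of the 8 genes, and Hp and Orm1 had no entry. Each of the 6 held the letters TTGCNNAA on at least 1 strand, the core of a C/EBP site, as did 10.8% of all 32851 promoters. The stretches around this match are shown because it is the feature that these 6 genes share. They are written 5′ to 3′ on the strand of the gene, with the match in capitals, on the gene's strand or as its reverse complement. For Saa3, the RefSeq start used for the window lies inside the range given below for the gene. The letters were chosen with these promoters in view, and a match is a description of sequence and no evidence of binding.
Saa3, chr7:46715748-46715795, minus strand, positions -99 to -92 from the start: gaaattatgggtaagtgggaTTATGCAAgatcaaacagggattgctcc
Lcn2, chr2:32387928-32387975, minus strand, positions -216 to -209 from the start: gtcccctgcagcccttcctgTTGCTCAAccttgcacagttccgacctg
Ptx3, chr3:66219810-66219857, plus strand, positions -57 to -50 from the start: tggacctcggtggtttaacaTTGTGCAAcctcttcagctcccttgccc
Hpx, chr7:105600289-105600336, minus strand, positions -200 to -193 from the start: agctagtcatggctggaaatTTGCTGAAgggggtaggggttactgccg
Orm2, chr4:63362309-63362356, plus strand, positions -120 to -113 from the start: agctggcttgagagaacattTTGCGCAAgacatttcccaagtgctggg
Steap4, chr5:7960365-7960412, plus strand, positions -87 to -80 from the start: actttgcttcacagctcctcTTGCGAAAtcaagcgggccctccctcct
The STAT letters TTCNNNGAA were present in 1 of the 6 windows, that of Steap4, and in 8.30% of all promoters. An NF-kB motif, written as GGGA, any base and TTNCC, was present in the window of Ptx3 and in 1.20% of all promoters. Both were searched on both strands, and no match says only that these letters are not in this window.

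Libraries held 47185990 to 73167755 counts, and transcripts of other tissues set some of them apart. Levels are in CPM, for which edgeR divides each count by the library's TMM-corrected size. The 12 adipocyte markers summed to 30294 to 41720 CPM (WT-NCD), 16322 to 21502 (WT-HFD), 24337 to 29585 (KO-NCD) and 26532 to 30444 (KO-HFD), and 10 of them were lower on HFD in WT mice and 7 higher in KO-HFD than in WT-HFD. The 25 liver markers summed to 13.3 to 21.1 CPM (WT-NCD), 9.32 to 95.3 (WT-HFD), 89.0 to 927 (KO-NCD) and 390 to 2330 (KO-HFD). The 12 neutrophil markers summed to 8.42 to 12.8, 25.2 to 499.7, 10.9 to 49.2 and 14.9 to 21.3 CPM in the same order. The 12 macrophage markers summed to 1018 to 1187, 2770 to 4915, 1277 to 2007 and 1110 to 2364 CPM in that order too. Of the liver marker sum in KO-NCD 1 (89.0 CPM), Serpina1b alone made 58.6 CPM and Alb, the albumin gene, 2.89 CPM. Seminal vesicle markers summed to at least 22297 CPM in each WT-NCD library and to at most 16.1 CPM elsewhere. Gja1, the targeted gene, was at 78.1 ± 4.99 and 67.5 ± 1.57 CPM in WT mice on NCD and HFD, and at 88.6 ± 53.8 and 76.5 ± 17.5 CPM in KO mice (SD, n = 3). No difference between genotypes passed on either diet (edgeR's quasi-likelihood test, adjusted p = 0.736 on NCD and 0.741 on HFD), so these libraries do not show the deletion. The spread in KO-NCD was wide, with KO-NCD 2 at 149.8 CPM. In larger groups, the study reports genotype effects in gWAT on Gja1 by qPCR and on Cx43 protein by immunoblot. It also reports the knockout by qPCR of Gja1 in macrophages isolated from gWAT, a measure that whole-tissue libraries do not give. In whole tissue, fewer cells of a type and less RNA per cell cannot be told apart.

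Per length of transcript, the genes spanned more than 3 orders of magnitude. The median over the 12 libraries was 2848 RPKM (CPM per kilobase of exon) for Hp, 220.1 for Orm1, 210.9 for Steap4, 16.0 for Saa3, 9.97 for Lcn2, 6.06 for Orm2, 2.37 for Hpx and 1.70 for Ptx3. Hp held 72.0% to 89.8% of the counts of the 8 genes together, which took 0.372% to 1.24% of a library. It ranked between 1 and 19 among all genes by count.

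**Figure D1:**
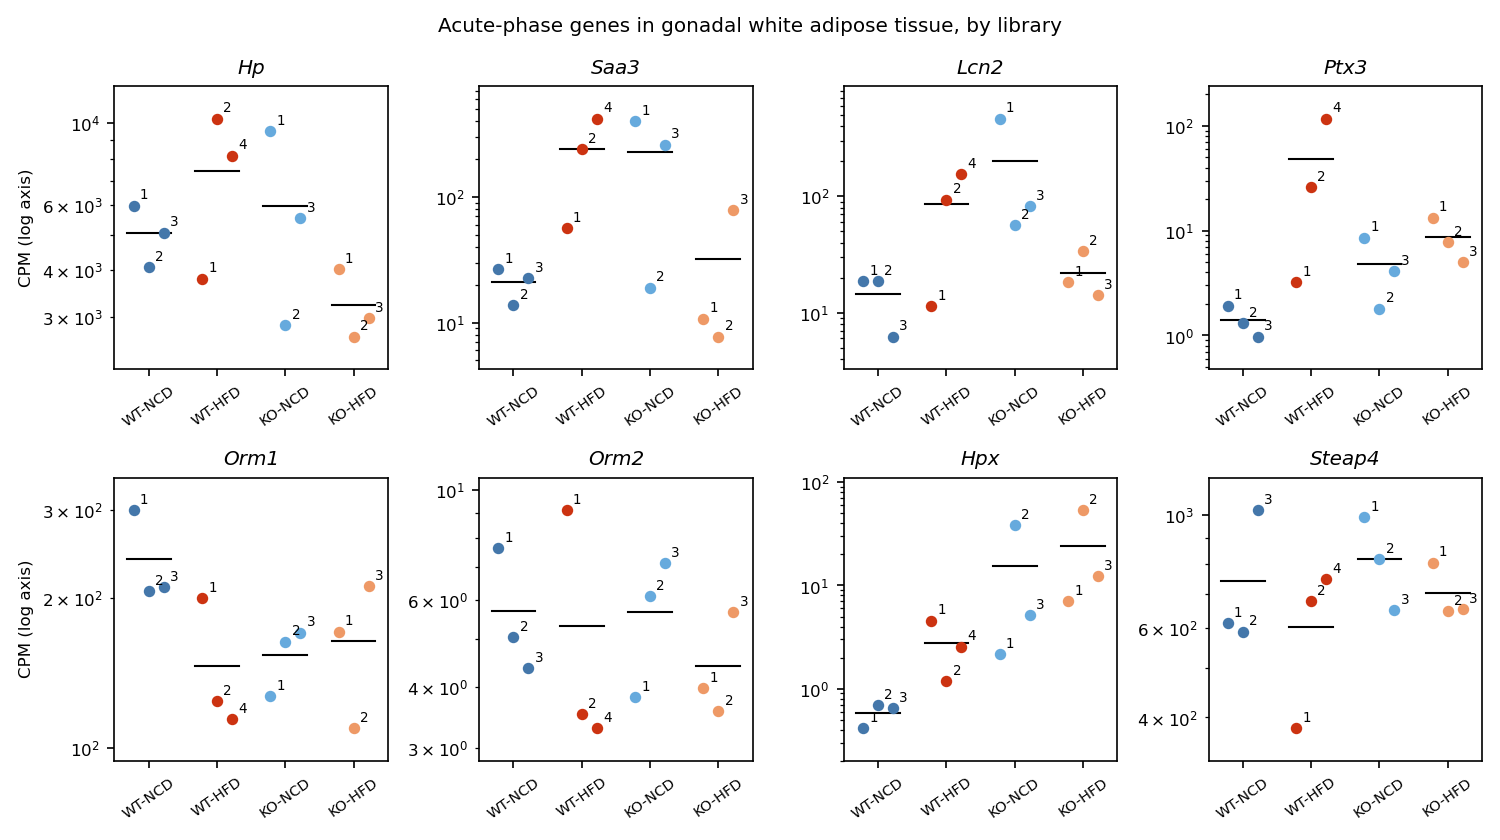
Expression of the 8 genes in each of the 12 libraries, in CPM on a log axis, with points by group and the group mean as a line. Hp lies between 2648 and 10299 CPM, and Saa3, Lcn2, Ptx3 and Hpx differ strongly between libraries of the same group.

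In WT mice, Saa3 and Ptx3 had more transcripts on HFD than on NCD, and these were the 2 of the 8 genes that passed the test (edgeR's quasi-likelihood test, adjusted p under 0.05 over the 16352 genes tested). Of all genes tested, 36.0% passed in this comparison, 17.6% as higher and 18.4% as lower. The share of the 8 genes was not above the 36.0% called in either direction. Both calls were higher, where the background is 17.6%, and 2 genes are too few to set the 8 apart from it. Their median log2 fold change was 1.39, against -0.00021 over all genes tested. At an unadjusted p under 0.05, 4 of the 8 were counted, against 45.4% of all genes tested. Saa3 and Ptx3 are described next, together with Lcn2, since all are made locally in inflamed tissue.

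Saa3 (Entrez ID 20210, chromosome 7 from 46711998 to 46719615 of GRCm38) was at 26.8, 13.7 and 22.6 CPM in WT-NCD 1, 2 and 3. It was at 56.4, 239.9 and 420.1 CPM in WT-HFD 1, 2 and 4. In KO-NCD it was at 401.8, 19.0 and 261.0 CPM in libraries 1, 2 and 3. In KO-HFD it was at 10.7, 7.73 and 78.6 CPM in the same order. The WT groups did not overlap, whereas KO-NCD 2 lay within the WT-NCD range and KO-NCD 1 and 3 lay within the WT-HFD range. Within KO-NCD the highest library was 21.2 times the lowest, and within WT-HFD 7.45 times. Saa3 was 11.4-fold higher on HFD in WT mice (log2 fold change 3.50, standard error 1.18, adjusted p = 0.0395). Among the 6 fits without 1 library, the call was kept only without WT-HFD 1 (adjusted p = 0.0296). It was lost without WT-NCD 1, 2 or 3 (adjusted p between 0.0939 and 0.118), without WT-HFD 4 (0.114), without WT-HFD 2 (0.06945), and with the replicate block (adjusted p = 0.0754). Without WT-HFD 2 and 4 together, the log2 fold change was 1.42. The block used the library number, and WT-HFD 4, the only library of its number, did not inform the WT-HFD mean in that fit.

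Lcn2 (Entrez ID 16819, chromosome 2 from 32384637 to 32387739) was at 18.6, 18.6 and 6.22 CPM in WT-NCD 1, 2 and 3. It was at 11.3, 93.8 and 154.7 CPM in WT-HFD 1, 2 and 4. WT-HFD 1 thus lay within the WT-NCD range, and the other WT-HFD libraries lay above it. In KO-NCD 1, 2 and 3 it was at 465.8, 56.7 and 82.2 CPM. In KO-HFD 1, 2 and 3 it was at 18.4, 33.7 and 14.2 CPM. Every KO-NCD library lay above every WT-NCD and every KO-HFD library. In WT mice, the log2 fold change on HFD was 2.58 (standard error 0.98) and did not pass the test (adjusted p = 0.0611), although it passed without WT-HFD 1 (3.10, adjusted p = 0.0206).

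Ptx3 (Entrez ID 19288, chromosome 3 from 66219887 to 66225806) was at 1.93, 1.32 and 0.975 CPM in WT-NCD 1, 2 and 3. It was at 3.23, 25.9 and 117.2 CPM in WT-HFD 1, 2 and 4. The WT groups did not overlap, but the highest WT-HFD library was 36.3 times the lowest. In KO-NCD it was at 8.60, 1.80 and 4.14 CPM, and in KO-HFD at 13.3, 7.73 and 4.99 CPM, in libraries 1, 2 and 3. All 3 KO-HFD libraries lay above WT-HFD 1 and below WT-HFD 2 and 4. Ptx3 was 34.6-fold higher on HFD in WT mice (log2 fold change 5.11, standard error 1.13, adjusted p = 0.00548). It passed the test in each of the 6 fits without 1 WT library, at log2 fold changes between 3.37 (without WT-HFD 4) and 5.67 (without WT-HFD 1). Without WT-HFD 2 and 4 together it was 1.19 (adjusted p = 0.324), and without WT-NCD 1 and 2 it was 5.64 (adjusted p = 0.112).

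The WT-HFD libraries with the most Saa3, Lcn2 and Ptx3 were also those with neutrophil transcripts. S100a9, a calprotectin subunit of neutrophils, was at 0.49, 58.8 and 191.9 CPM in WT-HFD 1, 2 and 4, and between 0.374 and 3.40 CPM in the other 9 libraries. S100a8, the other subunit, was at 4.58, 28.9 and 89.5 CPM in WT-HFD and between 0.541 and 3.32 CPM elsewhere. Adgre1, the macrophage surface protein F4/80, did not follow this order within WT-HFD, at 493.0, 244.1 and 271.9 CPM. It was between 42.0 and 63.0 CPM in WT-NCD, between 69.9 and 125.1 in KO-NCD and between 60.0 and 98.2 in KO-HFD. On HFD in WT mice, 11 of 12 macrophage markers were higher, against 17.6% of all genes, as were 6 of 8 tested neutrophil markers. Retnlg and Mmp8, among these 6, were at 0.069 CPM or less in every WT-NCD library, so neither could have come out lower. Retnlg was also at 0 in every KO library and thus passed the filter through WT-HFD. The neutrophil count therefore cannot be weighed against the share of all genes. Camp and Elane, also tested, had negative log2 fold changes that did not pass (-3.26 and -0.80, edgeR's quasi-likelihood test, adjusted p = 0.0732 and 0.335). The neutrophil markers Ngp, Ltf, Mpo and Ly6g were too low to be tested. In KO-NCD 1, Saa3 and Lcn2 reached 401.8 and 465.8 CPM with S100a9 at 3.40 CPM and Adgre1 at 125.1 CPM. The neutrophil marker sum was nevertheless the highest of the KO libraries there (49.2 CPM), but most of it came from Csf3r, the receptor of granulocyte colony-stimulating factor. Csf3r was at 40.3, 8.80 and 17.7 CPM in KO-NCD 1, 2 and 3, the order of Saa3 and Lcn2. In KO-NCD 1, the neutrophil markers S100a8 and Cxcr2 were at 2.59 and 1.11 CPM. The part of neutrophil and macrophage content in the values of WT-HFD and KO-NCD was not tested.

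**Figure D2:**
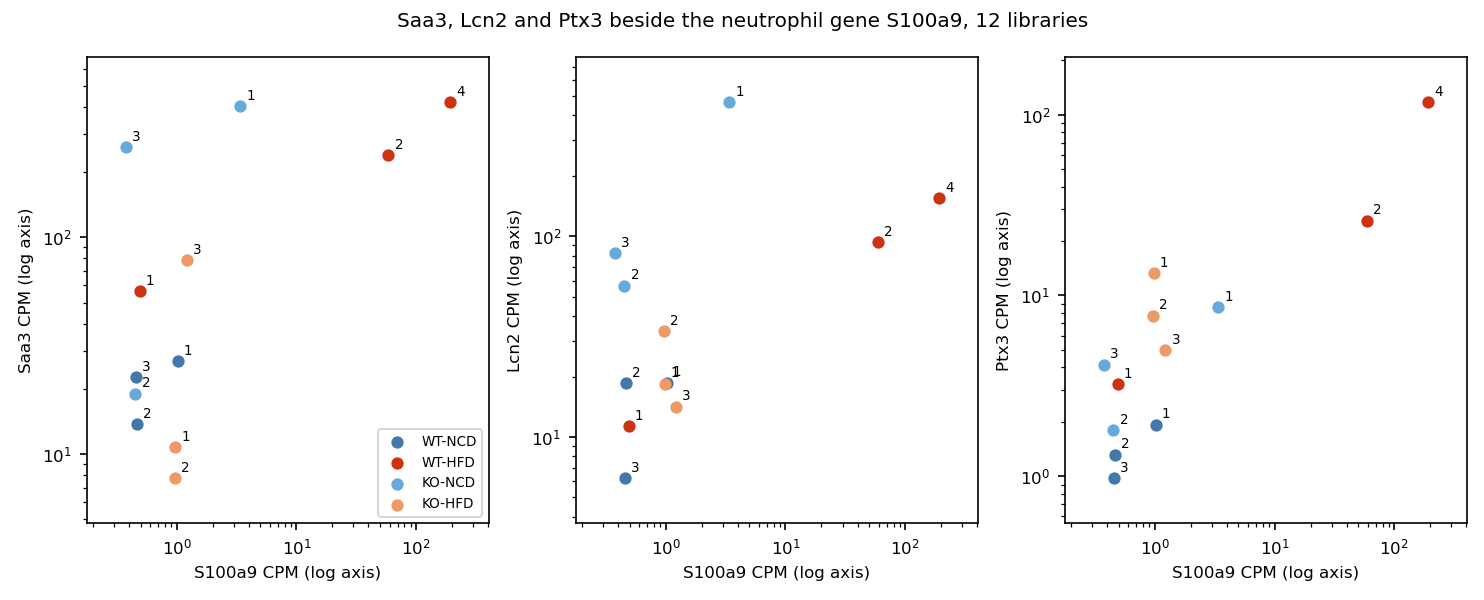
Saa3, Lcn2 and Ptx3 (vertical axes) against the neutrophil gene S100a9 (horizontal axis), both in CPM on log axes, with 1 point per library, colour by group and the library number beside it. WT-HFD 2 and 4 lie far to the right at 58.8 and 191.9 CPM of S100a9, whereas KO-NCD 1, at 3.40 CPM, is higher in Saa3 and Lcn2 than WT-HFD 2.

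On NCD, Lcn2 and Hpx were higher in KO than in WT mice. These 2 of the 8 genes passed the test, against 13.2% of all genes tested, of which 5.27% were higher and 7.91% lower in KO. At an unadjusted p under 0.05, 4 of the 8 were counted, against 31.3% of all genes tested, and the median log2 fold change was 1.01, against 0.060 over all genes tested. Lcn2 was 13.9-fold higher in KO-NCD than in WT-NCD (log2 fold change 3.80, standard error 1.03, adjusted p = 0.0369). Without KO-NCD 1, the highest library, the log2 fold change was 2.26 (adjusted p = 0.132). The call was also lost without KO-NCD 3 (adjusted p = 0.0636) or any WT-NCD library (0.075 to 0.115). With the replicate number as a block, neither gene passed (adjusted p = 0.0557 for Lcn2 and 0.0656 for Hpx). Saa3 was higher in 2 of 3 KO-NCD libraries, and its log2 fold change of 3.43 did not pass the test (adjusted p = 0.0766), although it did so without KO-NCD 2 (3.98, adjusted p = 0.0356). Ptx3 had a log2 fold change of 1.77 (adjusted p = 0.257).

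Hpx (Entrez ID 15458, chromosome 7 from 105591611 to 105600116) was the gene that moved with liver transcripts. It was at 0.414, 0.692 and 0.65 CPM in WT-NCD 1, 2 and 3 and at 4.56, 1.18 and 2.55 CPM in WT-HFD 1, 2 and 4. In KO mice it was at 2.16, 38.6 and 5.12 CPM in libraries 1, 2 and 3 on NCD and at 7.09, 53.7 and 12.3 CPM on HFD. Every KO-NCD library lay above every WT-NCD library, and every KO-HFD library lay above every WT-HFD library. Alb (albumin), the most abundant liver transcript, was at 8.37, 4.58 and 7.39 CPM in WT mice on NCD and at 33.0, 3.14 and 2.66 CPM on HFD. In KO mice it was at 2.89, 383.0 and 35.2 CPM on NCD and at 92.4, 1045 and 153.2 CPM on HFD. The order of the 3 libraries by Hpx was their order by Alb in KO-NCD and in KO-HFD. Hpx was 26.1-fold higher in KO-NCD than in WT-NCD (log2 fold change 4.71, standard error 1.18, adjusted p = 0.0293).

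Without KO-NCD 2, the log2 fold change of Hpx fell to 2.64 (adjusted p = 0.0718), and the call was also lost without KO-NCD 3 (0.0532) or any WT-NCD library (0.0667 to 0.116). With KO-NCD 2 and KO-HFD 2 both left out, it was again 2.64 and passed (adjusted p = 0.0267). In the 6 libraries with the most Alb counts, at least 1616 (WT-HFD 1, KO-NCD 2 and 3, and all KO-HFD), there were between 5.14 and 14.5 Hpx counts per 100 Alb counts. Ahsg, the liver glycoprotein fetuin-A, chosen after its values were seen, had 11.1 to 14.2 counts per 100 Alb counts in the same libraries. In WT-NCD the ratio ran from 4.95 to 15.1 for Hpx. The ratio for Hpx was 37.6 in WT-HFD 2, 95.8 in WT-HFD 4 and 74.8 in KO-NCD 1, where Alb had 226, 143 and 143 counts. In the same libraries and order, the ratio for Ahsg was 61.5, 28.0 and 10.5. Hpx was thus high relative to Alb in these 3 libraries, and so was Ahsg in the first 2. Of 25 liver markers, 6 were higher in KO-NCD than in WT-NCD and 5 in KO-HFD than in WT-HFD, and none was lower, against 5.27% and 7.99% of all genes tested. The first were Serpina1a, Serpina1b, Serpina1c, Serpina1d, Hamp and Kng1, and the second Serpina1a, Serpina1b, Serpina1d, Serpinc1 and Tdo2. Genes of the Serpina1 family thus made up most of both counts. Hamp was at 0 in every WT-NCD library and Kng1 at 0.049 CPM or less, so neither could have come out lower in KO-NCD. Such genes passed the filter through other groups, so these counts cannot be weighed against the shares of all genes. Alb did not pass on either diet (edgeR's quasi-likelihood test, adjusted p = 0.102 on NCD and 0.0688 on HFD). Serpina1b and Serpina1a, alpha-1-antitrypsin genes with the highest mean counts among liver markers after Alb, did not follow Alb in every library. Serpina1b was between 47.0 and 63.9 CPM in KO-NCD and between 117.6 and 132.2 CPM in KO-HFD, a narrower spread than that of Alb. In KO-NCD 1, Serpina1b was at 58.6 CPM with Alb at 2.89 CPM and 13 of the 25 liver markers at 0. The part of liver transcripts in the Hpx values was not tested.

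**Figure D3:**
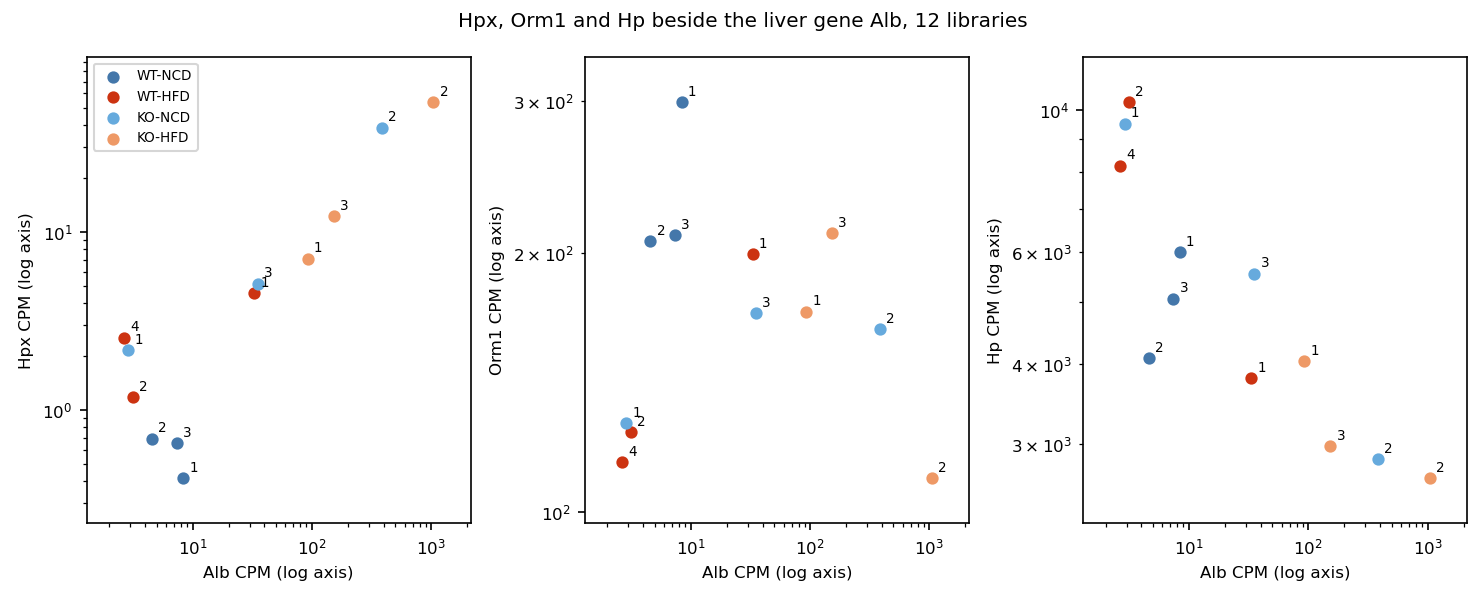
Hpx, Orm1 and Hp (vertical axes) against Alb (horizontal axis), both in CPM on log axes, with 1 point per library, colour by group and the library number beside it. Hpx is highest in KO-NCD 2 and KO-HFD 2, at 38.6 and 53.7 CPM, the libraries with the most Alb (383.0 and 1045 CPM), where Hp is lowest.

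Hp (Entrez ID 15439, chromosome 8 from 109575128 to 109579172) was the most abundant of the 8 genes in every library. It was at 5992, 4085 and 5064 CPM in WT-NCD 1, 2 and 3 and at 3804, 10299 and 8186 CPM in WT-HFD 1, 2 and 4. In KO-NCD 1, 2 and 3 it was at 9529, 2839 and 5544 CPM, and in KO-HFD 1, 2 and 3 at 4041, 2648 and 2974 CPM. WT-HFD 1 lay below all WT-NCD libraries and the other WT-HFD libraries above them, so the WT groups overlapped. The log2 fold change was 0.56 in WT mice on HFD (standard error 0.44, adjusted p = 0.356). It was -1.21 for KO-HFD against WT-HFD (standard error 0.44, adjusted p = 0.0882), and -1.52 without WT-HFD 1 (adjusted p = 0.0343). In each KO group the library richest in Alb had the least Hp. Counts of Hp exceeded those of Alb in every library, with 253 Hp counts per 100 Alb counts at the lowest, in KO-HFD 2.

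Orosomucoid transcripts came mainly from Orm1 (Entrez ID 18405, chromosome 4 from 63344556 to 63348163). It was at 299.2, 206.2 and 209.9 CPM in WT-NCD 1, 2 and 3 and at 199.3, 123.9 and 114.3 CPM in WT-HFD 1, 2 and 4. In KO-NCD it was at 126.9, 163.1 and 170.2 CPM, and in KO-HFD at 170.9, 109.5 and 210.8 CPM. The WT-NCD libraries were the highest of all apart from KO-HFD 3, and they lay above every WT-HFD and every KO-NCD library. The log2 fold change on HFD in WT mice was -0.71 (standard error 0.28, adjusted p = 0.0674), and -1.001 without WT-HFD 1 (adjusted p = 0.0201). Between KO-NCD and WT-NCD it was -0.64 (adjusted p = 0.144). The WT-NCD libraries are also those with seminal vesicle transcripts (at least 22297 CPM). Orm1 was called in no comparison, with or without the seminal vesicle genes in the counts. Leaving these genes out does not alter the counts of Orm1 itself. Seminal vesicle tissue and the WT-NCD group cannot be told apart for Orm1.

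Orm2 (Entrez ID 18406, chromosome 4 from 63362449 to 63365877) was between 3.29 and 9.11 CPM in all libraries, highest in WT-HFD 1, and did not pass the test in any comparison. Orm1, Orm2 and their neighbour Orm3 are near-identical copies on chromosome 4, so counts may have been split between them. Orm1 held 87.1% to 95.1% of the counts of the 3 genes, Orm2 1.94% to 4.31% and Orm3 1.31% to 9.52%. Orm3, which is not among the 8 genes, was at 26.8, 22.2 and 10.7 CPM in WT mice on NCD and at 2.76, 3.42 and 2.59 CPM on HFD. In KO mice it was at 11.1, 11.1 and 18.1 CPM on NCD and at 5.77, 8.23 and 9.37 CPM on HFD. It was lower in WT-HFD than in WT-NCD (log2 fold change -2.77, standard error 0.35, adjusted p = 0.000283) and higher in KO-HFD than in WT-HFD (1.41, adjusted p = 0.0206).

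Steap4 (Entrez ID 117167, chromosome 5 from 7960472 to 7982213) was at 613.7, 590.1 and 1022 CPM in WT-NCD 1, 2 and 3 and at 381.1, 677.7 and 749.3 CPM in WT-HFD 1, 2 and 4. In KO mice it was at 992.3, 818.0 and 650.0 CPM on NCD and at 806.7, 647.5 and 653.2 CPM on HFD. All 4 groups overlapped, and the log2 fold change was -0.30 in WT mice on HFD (standard error 0.28, adjusted p = 0.447) and -0.22 in KO mice (standard error 0.28).

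In KO mice, none of the 8 genes passed the test between HFD and NCD by edgeR or by DESeq2, and 2 were counted at an unadjusted p under 0.05. Of all genes tested, 0.0306% (5 genes) passed by edgeR and 2.06% (323 genes) by DESeq2, and 9.36% had an unadjusted p under 0.05. The log2 fold change was -3.19 for Lcn2 (adjusted p = 0.349), -2.81 for Saa3 (adjusted p = 0.472), -0.89 for Hp, 0.85 for Ptx3 and 0.67 for Hpx. Lcn2 was lower in all 3 KO-HFD libraries than in any KO-NCD library. KO libraries numbered 1 and 2 deviated together across the diets, and those numbered 3 hardly more than libraries of unlike number. With the number as a replicate block in the KO libraries alone, 0 of the 8 genes and 0 of all genes passed.

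Between KO-HFD and WT-HFD, none of the 8 genes passed edgeR's test, 4 were counted at an unadjusted p under 0.05, and DESeq2 called 3, with Hp and Saa3 lower and Hpx higher in KO. Of all genes tested, 15.7% passed by edgeR, 7.99% as higher and 7.72% as lower, 33.7% had an unadjusted p under 0.05, and DESeq2 called 25.1%. The median log2 fold change of the 8 genes was -0.74, against 0.019 over all genes tested. It was -2.88 for Saa3 (adjusted p = 0.109), -2.49 for Ptx3 (adjusted p = 0.108), -1.97 for Lcn2 (adjusted p = 0.174) and 3.15 for Hpx (adjusted p = 0.0707). Saa3 passed without KO-HFD 3 (-4.71, adjusted p = 0.0473) and Ptx3 without WT-HFD 1 (-3.04, adjusted p = 0.0215). Without WT-HFD 4, Ptx3 was at -0.75 (adjusted p = 0.62). Without WT-HFD 2 and 4 together, Lcn2 and Ptx3 changed sign, to 0.96 and 1.43.

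Saa3 and Lcn2 passed the test of whether the response to HFD differed between genotypes, but not with the replicate number as a block. The interaction, the log2 change on HFD in KO mice minus that in WT mice, was -6.32 for Saa3 (standard error 1.65, adjusted p = 0.0252). For Lcn2 it was -5.77 (standard error 1.40, adjusted p = 0.0189). These were 2 of the 8 genes, both lower, against 17.7% of all genes tested, with 9.12% higher and 8.57% lower. With the replicate block, the interaction was -6.74 for Saa3 (adjusted p = 0.0538) and -4.61 for Lcn2 (adjusted p = 0.0782). In that fit WT-HFD 4, the only library of its number, had a term of its own and did not inform the WT-HFD mean. The Lcn2 value passed in 11 of the 12 fits without 1 library, the exception being that without KO-HFD 3 (adjusted p = 0.05004). The Saa3 value passed in 4 of the 12, and was lost without any WT-NCD library, WT-HFD 4, KO-NCD 1 or 3, or KO-HFD 1 or 2, at an adjusted p of at most 0.0594. Without WT-HFD 2 and 4 together, it was -4.23 for Saa3 (adjusted p = 0.178) and -2.84 for Lcn2 (adjusted p = 0.223). Both diet responses enter the interaction, and mean Saa3 was close in KO-NCD and WT-HFD, at 227.3 ± 193.6 against 238.8 ± 181.8 CPM (SD, n = 3). Ptx3 had an interaction of -4.26 (adjusted p = 0.0602), Hp of -1.45 (0.134), Hpx of -1.56 (0.502) and Orm1 of 0.80 (0.182).

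**Figure D4:**
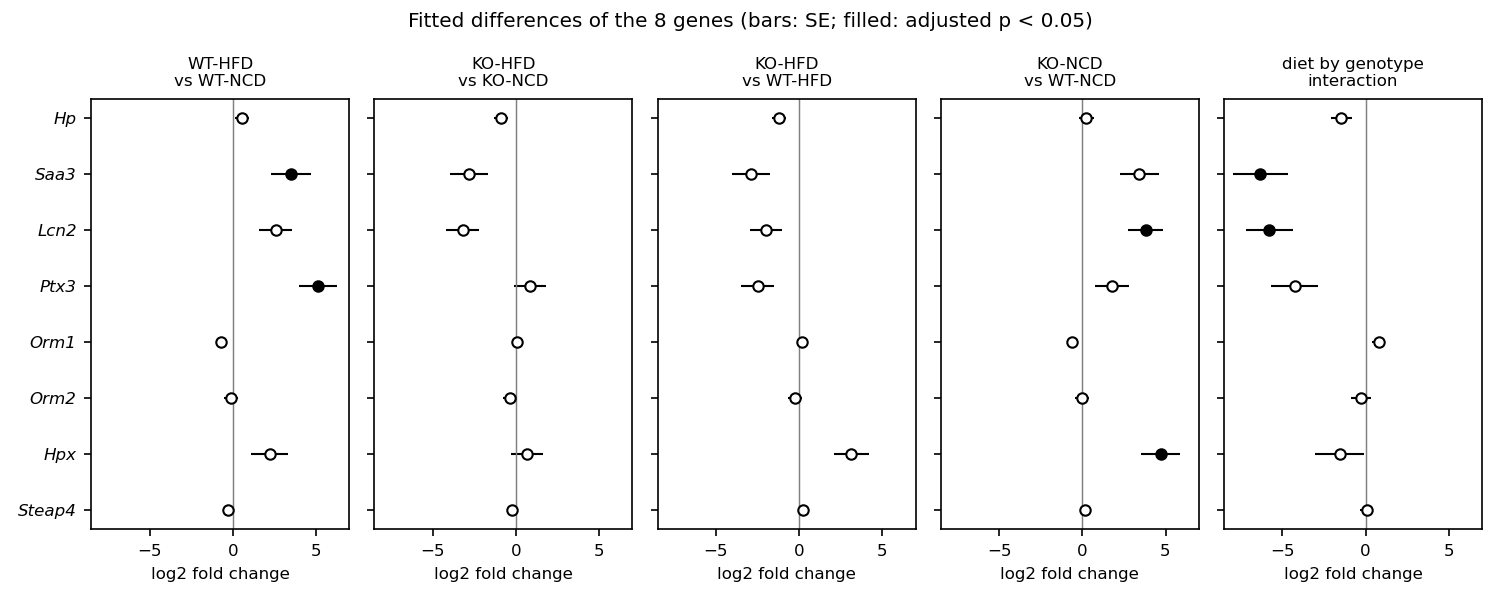
Log2 fold changes of the 8 genes in each comparison, with bars of 1 standard error from edgeR's quasi-likelihood fit and filled points at an adjusted p under 0.05. Filled points are Saa3 and Ptx3 for HFD in WT mice, Lcn2 and Hpx for genotype on NCD, and Saa3 and Lcn2 for the interaction.

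The signals that induce these genes were measured from a list of 24 inducers and transcription factors. In WT mice on HFD, 19 of the 24 were higher and 2 were lower, against 17.6% and 18.4% of all genes, with a median log2 fold change of 0.87. Tnf, the cytokine tumour necrosis factor, was higher (log2 fold change 2.19, standard error 0.32, adjusted p = 0.000652), as was Nfkb1, a subunit of NF-kB (0.56, adjusted p = 0.00272). Cebpa, the C/EBP factor of mature adipocytes, was lower (-1.34, adjusted p = 0.000177), as was Nr3c1, the glucocorticoid receptor (-0.63, adjusted p = 0.00419). All 4 passed without each WT library in turn. Adipocyte markers moved with Cebpa, with 10 of 12 lower on HFD in WT mice (median log2 fold change -0.94) and 7 of 12 higher in KO-HFD than in WT-HFD, and their part in the values of Cebpa, and of Agt, Trf and Orm3, was not tested. The count of higher genes fell to 7 without WT-NCD 1, 11 without WT-NCD 2, 8 without WT-HFD 4 and 2 without WT-HFD 2 and 4 together. It was 6 with the replicate block and 2 without WT-NCD 1 and 2 together. In KO-HFD against WT-HFD, 1 was higher (Cebpa, 0.70, adjusted p = 0.0143) and 3 were lower (Il1b, Osm and Lifr). Together these were near the 15.7% of all genes called in that comparison. Il1b, interleukin-1 beta, was at 1.21, 74.4 and 154.1 CPM in WT-HFD 1, 2 and 4 and at 3.01 CPM or less in every other library. Its log2 fold change of -5.53 (adjusted p = 0.0193) passed in 2 of the 6 fits without 1 library, and was 0.46 without WT-HFD 2 and 4. The calls of Osm, the cytokine oncostatin M (-3.83, adjusted p = 0.0248), and Lifr, the receptor of leukaemia inhibitory factor (-0.37, adjusted p = 0.0307), passed in 2 and 3 of these 6 fits. On NCD, 2 of the 24 were higher in KO than in WT and none was lower, against 5.27% and 7.91% of all genes. They were Tnf (1.38, adjusted p = 0.0229) and Il6ra, the interleukin-6 receptor (0.94, adjusted p = 0.0462), and neither call held in every fit without 1 library. For the interaction 1 was higher and 6 were lower, against 9.12% and 8.57% of all genes, and in KO mice on HFD none passed. With 1 library left out, the count of lower genes ran from 0 to 12 for genotype on HFD and from 1 to 12 for the interaction, both highest without WT-HFD 1.

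Of 30 other acute-phase genes, 29 were tested, and 7 were higher and 4 lower in WT-HFD than in WT-NCD, near the 36.0% of all genes called in that comparison, with a median log2 fold change of 1.28. Il1rn was among the higher genes, and the lower ones were Orm3, Cp, Agt and Trf. Il1rn, the antagonist of the interleukin-1 receptor, was higher (log2 fold change 4.64, standard error 0.42, adjusted p = 7.8e-05) and was 4.26 lower on the log2 scale in KO-HFD than in WT-HFD (adjusted p = 0.00111). Agt, angiotensinogen, moved the opposite way, at -1.94 in WT mice on HFD (adjusted p = 0.000112) and 1.90 in KO-HFD against WT-HFD (adjusted p = 0.00114). Trf, the plasma iron carrier transferrin, was lower in WT-HFD (-1.27, adjusted p = 0.000752) and in KO-NCD (-1.19, adjusted p = 0.00676) than in WT-NCD. These calls of Il1rn, Agt and Trf held in every fit without 1 library. Mean Trf was 4475 CPM in WT-NCD and between 1857 and 1967 CPM in the other groups. The WT-NCD libraries are also those with seminal vesicle transcripts, so for Trf, as for Orm1, that tissue and the group cannot be told apart. The counts for HFD in WT mice were 2 higher and 4 lower without WT-HFD 2 and 4, and 1 higher and 3 lower without WT-NCD 1 and 2. In KO-HFD against WT-HFD 3 of the 29 were higher and 4 lower, on NCD 3 were higher and 1 lower in KO, and for the interaction 3 were higher and 3 lower, against 15.7%, 13.2% and 17.7% of all genes called. With 1 library left out, the count of lower genes ran from 1 to 5 for genotype on HFD and from 2 to 6 for the interaction, again highest without WT-HFD 1. Among those higher in KO on both diets was Serpina1a, a gene of the liver list (3.57 on NCD, adjusted p = 0.00961, and 4.25 on HFD, adjusted p = 0.00391). The other 2 that were higher in KO on NCD, Crp and Hamp, encode C-reactive protein and hepcidin of the liver, and their calls passed in 0 and 1 of 6 fits without 1 library. Cd14, a coreceptor for endotoxin, was lower in KO-HFD than in WT-HFD (-1.64, adjusted p = 0.0195), which passed in 3 of 6. None passed between the diets in KO mice.

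Receptors and partners of the 8 genes' products formed a list of 16, of which 15 were tested. In WT-HFD against WT-NCD, 7 were higher and 1 was lower, against the same shares of all genes, with a median log2 fold change of 0.98. Tlr4, the endotoxin receptor, was higher (1.41, standard error 0.15, adjusted p = 0.000118), as was Hmox1, the haem-degrading enzyme (1.94, adjusted p = 0.000121), and Lrp1, the receptor of hemopexin bound to haem (0.98, adjusted p = 0.00546). Tlr2, a receptor of bacterial lipoproteins, was higher too (1.23, adjusted p = 0.0123). The count of higher genes fell to 4 without WT-NCD 3 or WT-HFD 4, and to 2 without WT-HFD 2 and 4 together. Without WT-NCD 1 and 2 together it was also 2. In KO-HFD against WT-HFD, 3 were lower (7.72% of all genes), namely Tlr4 (-1.07, adjusted p = 0.00257), Hmox1 (-1.42, adjusted p = 0.00297) and Cd163, the receptor of haptoglobin bound to haemoglobin (-0.97, adjusted p = 0.015). The calls of Tlr4 and Hmox1 held in every fit without 1 library, and that of Cd163 in 4 of 6. On NCD 1 of the 15, the iron exporter gene Slc40a1, was higher in KO (1.15, adjusted p = 0.0467), against 5.27% of all genes. This call was lost in each of the 6 fits without 1 library. For the interaction 3 were lower (8.57% of all genes), namely Tlr4, Hmox1 and Lrp1, and none passed between the diets in KO mice. Macrophages express Tlr4, Hmox1 and Cd163, and 9 of 12 macrophage markers were lower in KO-HFD than in WT-HFD, whose part in these values was not tested.

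Genes outside the 8 with the most similar pattern over the 12 libraries differed from gene to gene. By Pearson's r of log2 CPM, given as a description, the closest 3 to Saa3 were Itgb7 (0.92), Ly86 (0.91) and H2-M3 (0.91), and to Lcn2 H2-Q4 (0.91), Tap1 (0.88) and Nelfa (0.88). Those closest to Ptx3 were Ccl7 (0.96), Pkn3 (0.95) and Creb3l1 (0.95), and to Hp H2-K1 (0.89), Lrg1 (0.87) and Hnrnpl (0.87). Hpx was closest to Arhgef28 (0.93), Tbcel (0.90) and Alb (0.89). Orm1 was closest to Hfe (0.94), Pcmt1 (0.93) and Eapp (0.93), Orm2 to Mcm7 (0.82), Spg21 (0.81) and Ppp3r1 (0.81), and Steap4 to Elmod3 (0.82), Rhobtb1 (0.79) and Wrnip1 (0.78). All points come from the same 12 libraries, which share depth, group and tissue makeup.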

How the data were processed

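RNA of whole gWAT from 12 samples was sequenced from TruSeq Stranded mRNA libraries on a NovaSeq system. According to the submitters' processing notes and the study's methods, the authors used bcl2fastq version 2.20.0, Trimmomatic, HISAT2 version 2.1.0 with mm10 (GRCm38), and StringTie version 1.3.4d. The strand setting in counting is not given in the sources used here. The authors deposited raw counts per Entrez gene ID, as whole numbers, for 19792 IDs, of which 19745 matched a RefSeq symbol and 47 did not. Totals ran from 47185990 to 73167755 counts, with a median of 63334598, and no 2 columns were identical. The WT-HFD columns are numbered 1, 2 and 4 and were assigned to their group.

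The counts were filtered with filterByExpr (minimum count 10, minimum total count 15), which left 16352 genes, and scaled by TMM. A single edgeR model (version 4.0.16, R version 4.3.3) held a mean for each group, which left 8 residual degrees of freedom. The biological coefficient of variation was 0.339. The quasi-likelihood test was called at a Benjamini-Hochberg adjusted p under 0.05 over all genes tested, and standard errors were derived from its statistic. CPM used TMM library sizes. RPKM divided CPM by the union exon length. The fit was tested on simulated data. The 8 genes and all lists were chosen with earlier results of these data known. Other named genes are Alb, the 2 next liver markers by mean count, S100a8, S100a9, Adgre1, up to 4 genes with the smallest p of each list and comparison, and the 3 genes most alike to each of the 8 with above-median expression. Genes named beyond this rule, such as Orm3 beside its neighbours, Ahsg and the called genes of short lists, were chosen after their values were seen.

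In KO mice, deviations from the group means were correlated between libraries of equal number on the 2 diets (r of 0.468, 0.699 and 0.195 for numbers 1, 2 and 3). KO pairs of unlike number ran from -0.571 to 0.182, so number 3 stood barely above them. Between other groups, r reached 0.311 (WT-HFD 1 with KO-NCD 2). KO-NCD 2 and KO-HFD 2 are also the libraries with the most Alb. The numbers were taken as pairs from these values and not from the labels, and the pairing is uncertain. The block over all libraries also tied WT libraries by number. WT-NCD and WT-HFD libraries of equal number did not deviate together (r of -0.0789 and -0.0235 for numbers 1 and 2). As the only library of its number, WT-HFD 4 had a term of its own there and did not inform the WT-HFD mean. Alternatives were DESeq2 version 1.42.0 (Wald test, and its size factors in edgeR), no filter, only the groups compared, the replicate block, leaving out each library, leaving out KO-NCD 2 with KO-HFD 2 or WT-NCD 1 with WT-NCD 2, and leaving out the seminal vesicle genes. Chosen after seeing the data were the block in the KO libraries alone, leaving out WT-HFD 2 with WT-HFD 4, and list counts under each alternative. Per the study's methods, the authors used DESeq2 to normalise counts and to find differentially expressed genes, and none of those results was used here.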

Additional observations from a re-analysis of the deposited data

Results flagged for a closer look

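For 2 of the 8 genes, the change on HFD differed between the genotypes by a test of the difference itself. For Saa3, the log2 change in KO mice was lower than that in WT mice by an interaction of -6.32 (edgeR's quasi-likelihood test, adjusted p = 0.0252). The group means behind it were 21.0 ± 6.70 and 238.8 ± 181.8 CPM in WT mice on NCD and HFD, and 227.3 ± 193.6 and 32.4 ± 40.1 CPM in KO mice (SD, n = 3). For Lcn2, the interaction was -5.77 (adjusted p = 0.0189), with means of 14.5 ± 7.14 and 86.6 ± 72.0 CPM in WT mice on NCD and HFD, and 201.6 ± 229.2 and 22.1 ± 10.3 CPM in KO mice (SD, n = 3). The diet comparison in WT mice passed the test for Saa3 (adjusted p = 0.0395) but not for Lcn2 (0.0611), and that in KO mice for neither. With the replicate block, neither interaction passed (adjusted p = 0.0538 for Saa3 and 0.0782 for Lcn2).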

How the results depend on the processing

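Of 632 values of the 8 genes recomputed, 537 kept direction and side of the threshold, 41 lost the call, 19 gained it and 35 changed sign. The DESeq2 Wald test called 4 of the 8 genes for HFD in WT mice and 3 for KO-HFD against WT-HFD. It called 323, 4084 and 3749 of all genes for HFD in KO mice, genotype on HFD and genotype on NCD. Its count over all genes for HFD in WT mice is not given here, so the 4 of 8 stand without a background. In edgeR's main fit, 36.0% of all genes passed in that comparison. Without a filter, 3 genes passed for HFD in KO mice and Orm2 between genotypes on NCD was at 0.00041. Fitting only the groups compared gave 0 genes for HFD in KO mice, 1313 for genotype on HFD, 1188 and 0 of the 8 for genotype on NCD, and Orm2 there at 0.00097. With the replicate block, 1 of the 8 genes passed for HFD in WT mice, again without a count over all genes here. With it, 0 of the 8 passed for genotype on NCD and the interaction. Of all genes, 661, 1209 and 1356 passed with it for genotype on HFD, genotype on NCD and the interaction. With the block, Orm2 was at 0.15 for HFD in WT mice and 0.023 for genotype on NCD, and Orm1 at -0.051 for genotype on HFD. With the block in the KO libraries alone, 0 genes passed. Without KO-NCD 2 and KO-HFD 2, 1014 genes passed for genotype on HFD. Without WT-NCD 1 and 2, 2474, 0, 76 and 736 genes passed for HFD in WT mice, HFD in KO mice, genotype on NCD and the interaction, with 0 of the 8 in each. Orm2 was then at 0.28 for HFD in WT mice and 0.36 for genotype on NCD, and Steap4 at -0.34 there. Without WT-HFD 2 and 4, 3178, 721 and 1383 genes passed for HFD in WT mice, genotype on HFD and the interaction, with 0 of the 8. Hp, Lcn2 and Orm2 were then at -0.41, -0.36 and 0.68 for HFD in WT mice, and Lcn2, Orm1 and Ptx3 at 0.96, -0.28 and 1.43 for genotype on HFD. The causes were not tested.

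Leaving out 1 library at a time, between 4626 and 5430 genes and 1 and 4 of the 8 passed for HFD in WT mice, between 1 and 8 genes and 0 of the 8 for HFD in KO mice, between 937 and 2783 genes and 0 and 2 of the 8 for genotype on HFD, between 499 and 1879 genes and 0 and 2 of the 8 for genotype on NCD, and between 1740 and 3055 genes and 1 and 4 of the 8 for the interaction. Genes that changed sign had log2 fold changes within these ranges. For HFD in WT mice, they were -0.74 to 0.17 for Orm2 and -0.49 to 0.0017 for Steap4. For HFD in KO mice, they were -0.13 to 0.32 for Orm1 and -0.66 to 2.74 for Hpx. For genotype on HFD, they were -0.072 to 0.46 for Orm1, -0.52 to 0.37 for Orm2 and -0.023 to 0.41 for Steap4. For genotype on NCD, they were -0.27 to 0.58 for Hp, -0.20 to 0.25 for Orm2 and -0.028 to 0.45 for Steap4. For the interaction, they were -0.53 to 0.37 for Orm2, -0.23 to 0.26 for Steap4 and -2.89 to 0.51 for Hpx. None of the genes that changed sign was called in the comparison concerned.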

Other observations

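Cebpb, the C/EBP factor best known for inducing acute-phase genes, was at 50.4, 3.84 and 29.7 CPM in WT-NCD 1, 2 and 3 and at 1.70, 69.7 and 3.20 CPM in WT-HFD 1, 2 and 4. In the KO libraries it was between 22.9 and 38.9 CPM. WT-NCD 2 and WT-HFD 1 and 4 thus lay far below the other 9 libraries, which the groups do not account for, and no comparison of Cebpb passed the test (adjusted p = 0.926 for HFD in WT mice). It was named after its values were seen.

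Lrg1 and Serpina3n are secreted acute-phase glycoproteins, and Serpina3n was named after its values were seen. Lrg1 was at 1505 and 1240 CPM in WT-HFD 2 and 4 and at 1015 CPM in KO-NCD 1, and between 234.2 and 639.2 CPM in the other 9. Serpina3n was at 1618 and 1304 CPM in WT-HFD 2 and 4, at 1958 and 1393 CPM in KO-NCD 1 and 3, and between 705.5 and 1256 CPM in the other 8. Neither passed the test in any comparison. Il6 and Socs3, the cytokine and the feedback inhibitor of its STAT3 signal, rose on HFD in WT mice (log2 fold change 3.84, adjusted p = 0.0206, and 2.59, adjusted p = 0.0123). Socs3 was at 11.2 CPM in WT-HFD 1, below the WT-NCD range, and at 77.5 and 146.0 CPM in WT-HFD 2 and 4.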
